A study of Homo sapiens with 8 samples.

Results

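Replication-dependent histone genes encode the core histones H2A, H2B, H3 and H4 and the linker histone H1 that package newly made DNA. They are transcribed mainly during S phase from tandem clusters, and most of their mRNAs carry no introns and no poly(A) tail. Their 3′ end is instead a short stem-loop that is bound by SLBP and cut a few bases downstream with the help of the U7 snRNP. The genes described here are the protein-coding members of the symbol families H1-1 to H1-6, H2AC, H2BC, H3C and H4C, as named by GENCODE on hg38, with at least 10 normalized counts in at least 3 short-read libraries. By this rule 40 genes were found, out of 70 such symbols in the annotation and 62635 genes in the short-read table. They comprise 4 H1, 10 H2A, 11 H2B, 5 H3 and 10 H4 genes. The histone cluster on chromosome 6 holds 29 of them, and the smaller cluster on chromosome 1 holds 9. H4C16 on chromosome 12 and H2BC12L on chromosome 21 lie outside both.

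All libraries came from HAP1, a near-haploid human line derived from a leukemia that grows attached, with no genotype change or treatment named in the labels. Nuclei were split with a urea and detergent buffer into a chromatin pellet and a nucleoplasm supernatant, and ribosomal RNA was depleted without selecting poly(A) RNA. Each fraction of 3 cultures gave 1 short-read library, 6 in all, and long reads were made from 2 chromatin samples whose RNA was given poly(A) tails by an enzyme before direct cDNA sequencing. The study compared the fractions to find RNAs held on chromatin and to assemble their transcripts. Fractions were taken from the titles, since a further label field reads chromatin for every library. Because the 3 cultures are of 1 line, p-values measure the spread between these cultures only. A difference between fractions is relative to the other RNAs of each fraction unless a scaling to the ERCC standards is named. In bulk RNA, the level of histone RNA in a fraction does not separate the number of cells in S phase from the histone RNA per cell. This limit is one of levels, since both fractions came from the same cultures.

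Short-read depth ran from 38895027 to 43804918 reads in chromatin and from 75737601 to 79523938 in nucleoplasm, so counting error is small for all but the lowest histone genes. The nuclear lncRNAs MALAT1 and NEAT1 were higher in chromatin (log2 fold change 3.09 and 2.40), and the mRNAs GAPDH and B2M were lower (-2.35 and -2.11), which goes with the fractions in the titles. Of 10 blood lineage markers, 3 were at 0 in every library and 3 were tested (TAL1, KIT and RUNX1), and among 5 markers of other cells 3 were at 0 and COL1A1 and EPCAM were tested. PTPRC, the pan-leukocyte marker CD45, was one of those at 0.

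The stem-loops of these genes carry the feature that sets their mRNAs apart, so 1 is shown for each histone type, with 2 for H2A and H4. Each is given 5′ to 3′ on the strand of the gene as DNA, with the 16 bases of the stem-loop in capitals and 5 bases on either side in lower case.
H1-4, chr6:26157095-26157110, plus strand: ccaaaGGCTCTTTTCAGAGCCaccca
H2AC8, chr6:26217417-26217432, plus strand: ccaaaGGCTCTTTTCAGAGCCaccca
H2AC15, chr6:27837885-27837900, minus strand: aaaaaGGTTCTTTTCAGAGCCaccta
H2BC5, chr6:26158587-26158602, plus strand: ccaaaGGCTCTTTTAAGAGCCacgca
H3C2, chr6:26031597-26031612, minus strand: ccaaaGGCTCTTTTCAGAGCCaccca
H4C15, chr1:149860769-149860784, minus strand: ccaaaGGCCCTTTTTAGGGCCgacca
H4C3, chr6:26104317-26104332, plus strand: ccaaaGGCCCTTTTCAGGGCCgctca

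The motif searched was a left arm of GGCNCT, a loop of TNTN and a right arm of AGNGCC, read on the gene's strand in the 100 bases after the stop codon. It was found in 38 of the 40 genes (95.0%), against 3 of 19530 protein-coding genes outside the histone families (0.0154%), which were H3-7, H3-4 and H2AX. The exceptions were H2AC15, with 1 mismatch in the left arm, and H2BC12L, in which no such motif was found in this window. Among the 39 genes with a stem-loop, the most common form, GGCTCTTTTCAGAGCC, was present in 21. All 10 H4 genes carried T4C and A13G relative to it, positions being counted from the 5′ end of the stem-loop, so that both arms of the stem changed together. No gene of another type carried these changes. The remaining forms differed in the loop (C10A, C10T and T8C), apart from the C3T of H2AC15. The stem-loop began 23 to 68 bases after the stop codon (median 36), and the annotated transcript ended within 10 bases after it in 37 of the 39. The poly(A) signal AATAAA was in the same window in 3 genes (H1-2, H2BC5 and H4C11), or 7.50%, against 8.64% of other protein-coding genes. The window starts at the stop codon and not at the transcript end. These shares are therefore not those of genes with a signal at their 3′ end.

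The number of distinct proteins differed between types. The 10 H4 genes held 8 distinct coding sequences and 1 distinct protein, and the 5 H3 genes held 5 coding sequences and 2 proteins. The 10 H2A genes encoded 7 proteins and the 11 H2B genes 10, whereas the 4 H1 genes encoded 4. Identity between H4 coding sequences ran from 79.6% to 100%, and every 50-base word of the transcripts of H4C14, H4C15, H2AC18, H2AC19 and H2BC12L occurs elsewhere in the genome. In 11 of the 40 genes, over 50% of the 50-base words of the transcript occur elsewhere. The counts of these 11 genes depend on how the aligner placed shared reads and are uncertain for each gene alone.

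Nearly all histone mRNAs were more abundant in nucleoplasm than in chromatin. The 38 genes above 100 normalized counts on average were all lower in chromatin, by 2.73- to 7.70-fold (median 5.00-fold). With limma, fitted to all 26066 tested genes, 38 genes were lower at an adjusted p-value under 0.05. Of these, 32 passed the 4-fold minimum of a call as lower. Among all tested genes 8.47% were called lower and 21.2% called higher, and at the adjusted p-value alone 45.2% were lower and 44.2% higher. None of the 40 was called higher with limma and 1 with DESeq2. The 2 genes above 0, H1-1 and H2AC13, met the count filter through their chromatin values. Their direction was thus favoured by the filter, and no test is given for them. The median log2 fold change was -2.31 for the histone genes and -0.02 for all tested genes. The median standard error of a fold change was 0.07.

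**Figure D1:**
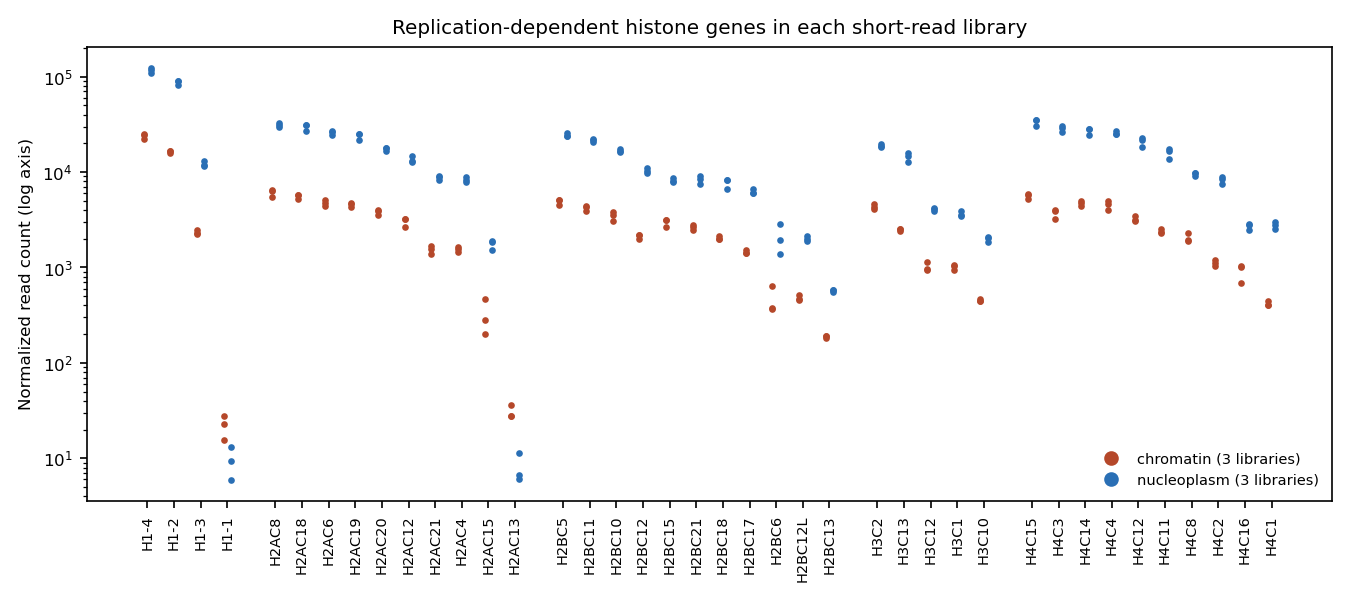
Normalized read count (log axis) of each of the 40 histone genes in the 3 chromatin and 3 nucleoplasm short-read libraries, 1 point per library, ordered by type and mean level. In 38 genes all nucleoplasm points lie above all chromatin points, and in H1-1 and H2AC13, both under 40 normalized counts, the order is the opposite. These 2 genes met the count filter through chromatin. Among all 26066 tested genes, nucleoplasm lay wholly above chromatin in 11998 and wholly below it in 11619.

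The count of 32 rests on genes close to the 4-fold line. The nearest gene called was H3C12 at -2.01 and the nearest not called was H2BC18 at -1.92. With each library set to the same total, 11 of the 40 were called lower and 1 higher, and their median was -1.85. With each library set to the same ERCC total, 38 were called lower, and their median was -3.63. Over all tested genes, 2208 were called lower and 5531 higher as deposited, 1000 and 6683 under the same total, and 8942 and 3047 under the same ERCC total. These scalings moved the fold changes of all genes by a median of 0.46 and -1.31, and the median of the histone genes stayed below that of all genes by -2.29 and -2.31. Of the 40 genes, only H1-1 changed direction, to -0.075 under the ERCC scaling.

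As a group the 40 genes took 0.282%, 0.274% and 0.295% of the gene reads in the chromatin libraries, and 0.990%, 1.09% and 1.10% in the nucleoplasm libraries. Summed over the 40 genes, chromatin held 136762 ± 7953 normalized counts and nucleoplasm 703668 ± 41518 (SD, n = 3), 5.15-fold apart with no overlap. The 2 most abundant genes held 29.3% of this sum in chromatin and 29.0% in nucleoplasm. Across the 40 genes the order of levels was almost the same in both fractions (Spearman's rho 0.97, a description of genes that share their libraries).

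Linker histone H1 binds the nucleosome where DNA enters and leaves it, and 2 of its genes were the most abundant of all members. H1-4 was at 24295, 22210 and 24762 normalized counts in chromatin and at 110273, 117334 and 124311 in nucleoplasm. H1-2 was at 16674, 15673 and 16627 in chromatin and at 81440, 90637 and 89217 in nucleoplasm. For H1-3 the values were 2474, 2278 and 2269 in chromatin against 11528, 11766 and 13119. These genes had log2 fold changes of -2.30 ± 0.07, -2.41 ± 0.06 and -2.37 ± 0.06 (SE), with no overlap between fractions (adjusted p-values from limma of 1.4e-08, 1.0e-08 and 1.1e-08). H1-1 behaved differently, at 28.0, 22.8 and 15.4 in chromatin and 13.2, 9.47 and 5.91 in nucleoplasm. The fold change was 1.15 ± 0.33 on the log2 scale, under the fold minimum. Since 3 chromatin libraries and 1 nucleoplasm library reached 10 normalized counts, H1-1 met the count filter through chromatin, which favours this direction, and no test is given. H1-5 reached at most 1.76 normalized counts in any library.

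H2A proteins pair with H2B in the nucleosome. H2AC8, the most abundant H2A gene, was at 6463, 5538 and 6387 in chromatin and at 30007, 31472 and 33018 in nucleoplasm. H2AC18, on chromosome 1, was at 5714, 5249 and 5779 against 27157, 31086 and 30909, and H2AC6 was at 4737, 4449 and 5067 against 24630, 26324 and 27034. Their log2 fold changes were -2.36, -2.41 and -2.45, and neighbours in this order differed by less than the standard error of either. H2AC15, the gene with the altered stem-loop, had the lowest fold change of the type. It was at 282, 472 and 202 in chromatin and at 1526, 1832 and 1877 in nucleoplasm (-2.53 ± 0.26, adjusted p = 2.0e-05 with limma). H2AC21, whose stem-loop matched the motif in full, lay within that standard error at -2.51 ± 0.08. H2AC13 was the exception, at 36.1, 27.6 and 27.4 in chromatin and 11.4, 6.03 and 6.76 in nucleoplasm. The fold change was 1.83 ± 0.27 on the log2 scale, and 63.5% of its 50-base words occur elsewhere. H2AC13 also met the count filter through chromatin, with 1 nucleoplasm library at 10 or more.

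Among the 11 H2B genes, 7 were called and the median log2 fold change was -2.09. It was the nearest to 0 of the 5 types as tested, but H3 was nearer without the genes that share most words (-2.07 against -2.11) and by any overlap of spans (-2.13 against -2.17), and H1 and H3 were nearer without a filter (-1.54 and -1.91). H2BC5 was at 5148, 4530 and 5040 in chromatin and at 23948, 23717 and 25506 in nucleoplasm. The values of H2BC11 were 4354, 3920 and 4460 against 20473, 21592 and 21953, and those of H2BC10 were 3586, 3102 and 3802 against 16432, 16208 and 17374. These genes stood at -2.31, -2.33 and -2.26, near the low end of the type. At the other end, H2BC15 was at 3160, 2683 and 3174 in chromatin against 8055, 7955 and 8568, a log2 fold change of -1.45 ± 0.07. H2BC13, H2BC21 and H2BC18 followed at -1.60, -1.66 and -1.92. The table genes of H2BC15 (chr6:27837760-27865798) and H2BC18 (chr1:149782689-149812373) span far more than their canonical transcripts of 542 and 492 bases. Their counts need not be those of the histone mRNA alone. H2BC13 has no such long span, while H2BC5 and H2BC11, at the low end, do. The part of the span in these fold changes was not tested. H2BC6 had the largest standard error of the 38 genes above 100 normalized counts, and ran from 366 to 632 in chromatin and from 1370 to 2841 in nucleoplasm.

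Histone H3 is the core histone whose tail carries many of the best known modifications. H3C2 was at 4570, 4321 and 4060 in chromatin and at 18150, 19628 and 18893 in nucleoplasm. H3C13, on chromosome 1, was at 2525, 2383 and 2540 against 12667, 14869 and 15807, the lowest fold change of the type at -2.53 ± 0.08. H3C12 was at 1131, 939 and 964 against 3860, 4088 and 4207, and H3C1 at 1045, 945 and 1068 against 3452, 3511 and 3870. H3C1, at -1.82 ± 0.07, was the only H3 gene not called. H3C13, the only H3 gene of chromosome 1 that met the rule, thus lay below the 4 on chromosome 6, which ran from -2.14 to -1.82, but 72.1% of its words occur elsewhere.

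H4, which forms a tetramer with H3, had the lowest fold changes. H4C15 was at 5869, 5231 and 5807 in chromatin and at 30673, 34759 and 35303 in nucleoplasm, and H4C14, also on chromosome 1, was at 4936, 4367 and 4751 against 24391, 27997 and 28537. H4C3 was at 3952, 3237 and 4034 against 26563, 29103 and 30504, the largest difference of all 40 genes at -2.95 ± 0.09 on the log2 scale, or 7.70-fold. H4C2 (-2.88), H4C1 (-2.73), H4C11 (-2.72) and H4C12 (-2.69) were close to it. H4C16, which stands alone on chromosome 12, was at 1019, 693 and 1042 against 2453, 2822 and 2802, or -1.57 ± 0.15, and it was the only H4 gene not called. The median of the H4 genes was -2.63, below that of H2A (-2.41), H1 (-2.34), H3 (-2.13) and H2B (-2.09), and the 9 H4 genes of the clusters all lay at or below -2.22.

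**Figure D2:**
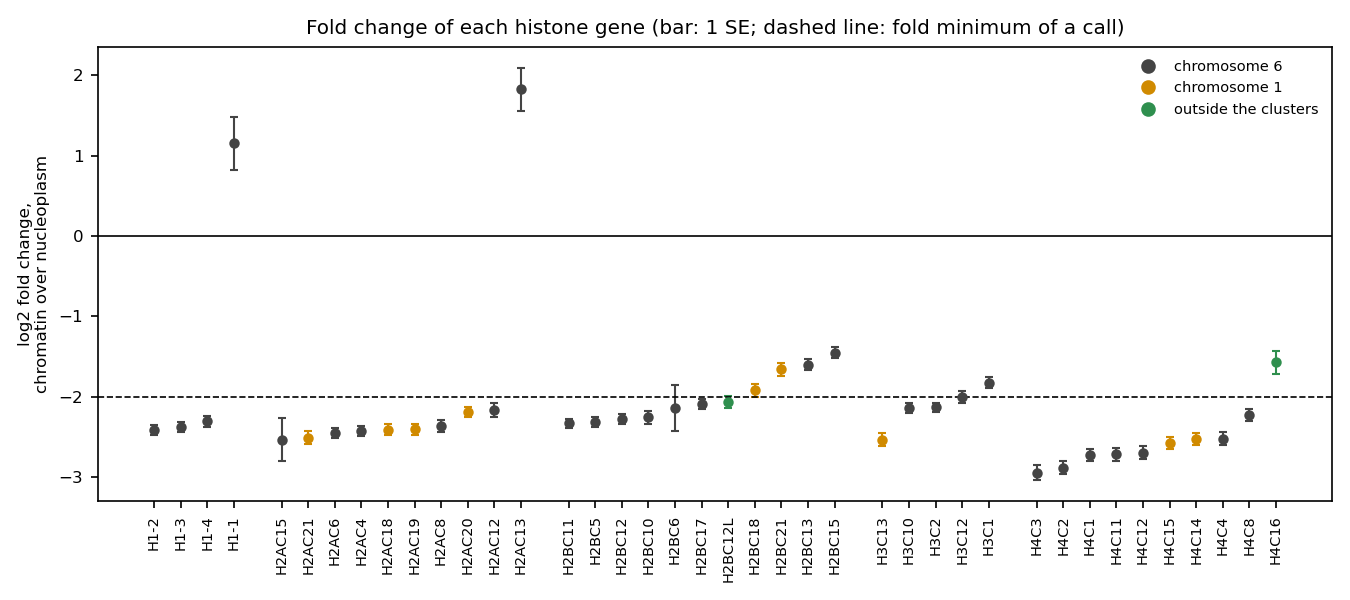
Log2 fold change of chromatin over nucleoplasm for each histone gene, with a bar of 1 standard error from limma, ordered within each type and coloured by cluster. The 9 clustered H4 genes run from -2.95 to -2.22, the H2B genes from -2.33 to -1.45, and H1-1 and H2AC13 are the 2 genes above 0.

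The balance of types followed the same order. Of the summed counts of the 40 genes, H4 genes made up 24.9% ± 0.413 in nucleoplasm and 21.0% ± 0.372 in chromatin (SD, n = 3). H2B genes made up 15.3% ± 0.312 and 18.3% ± 0.201. Neither pair of ranges overlapped, nor did the range of H3, at 6.11% ± 0.0544 in nucleoplasm and 6.80% ± 0.348 in chromatin. The shares of H1 (30.8% and 31.0%) and H2A (22.9% in both) overlapped between fractions. These shares do not depend on how the libraries are scaled, but they do depend on which loci met the rule. The loci of H3C14, H3C15 and H3C8, left out by their spans, averaged 45539, 38766 and 33248 normalized counts in nucleoplasm. The H3 genes of the rule summed to 43003 there. Shares with the left-out loci were not counted.

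**Figure D3:**
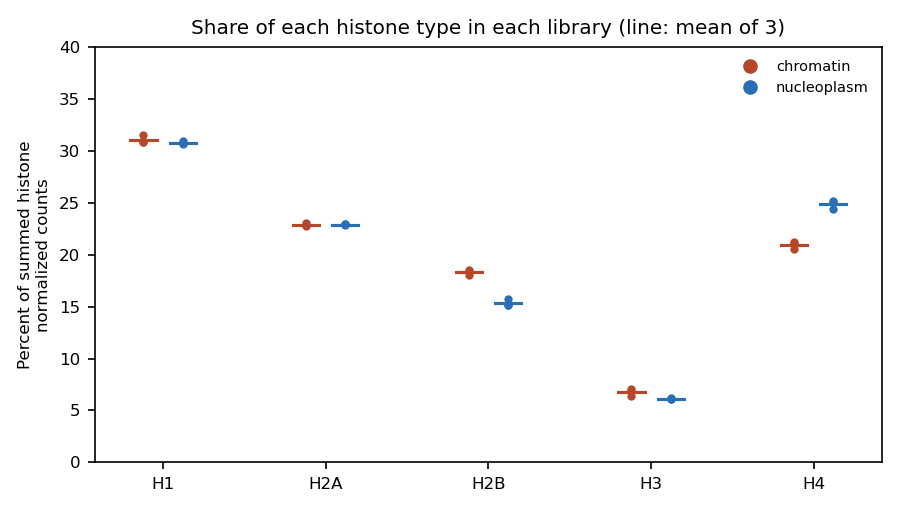
Share of each histone type in the summed normalized counts of the 40 genes, as a percent, in each of the 3 chromatin and 3 nucleoplasm libraries, with a line at the mean. The chromatin points lie below the nucleoplasm points for H4 and above them for H2B and H3, and they overlap for H1 and H2A.

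By position, the 29 genes on chromosome 6 had a median of -2.30 and the 9 on chromosome 1 a median of -2.41. Without the genes that share most of their 50-base words, the order turned, to -2.30 for 25 genes and -2.19 for 3. The 4 H2A genes on chromosome 1 and the 6 on chromosome 6 had medians of -2.41 and -2.40, while the 2 H2B genes on chromosome 1 stood at -1.79 and the 8 on chromosome 6 at -2.20. The sign of the difference between clusters thus varied with the type. Chromosome 1 held 24.1% of the summed counts in chromatin and 24.3% in nucleoplasm. Along chromosome 6 the genes lie in 3 blocks, and from the first to the last coordinate their medians were -2.36 (17 genes), -2.28 (3 genes) and -2.09 (9 genes).

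Divergent pairs, which start on opposite strands from a shared region, were compared as neighbours with 1 promoter region. In 5 pairs of these genes the starts were 170 to 319 bases apart. The fold changes of H2BC12 and H2AC12 differed by 0.12 on the log2 scale and those of H3C12 and H2BC17 by 0.09. H2BC21 and H2AC20 differed by 0.53, and H2AC15 and H2BC15 by 1.08, in both cases with the H2B gene nearer to 0. The widest pair was H2BC13 and H2AC13, with 569 and 8.06 normalized counts in nucleoplasm and fold changes of -1.60 and 1.83.

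Promoter sequences of RefSeq were matched for 35 of the 40 genes, and the 250 bases before the start were searched on both strands for the CCAAT box, the TATA box letters TATAAA, the octamer ATTTGCAT bound by OCT1, and the H1 box AAACACA. The letters CCAAT were in 27 of the 35, all of the H1, H2A, H2B and H3 promoters and none of the 8 H4 promoters, against 31.9% of 35048 other promoters. TATAAA was in 27 (77.1%, against 10.6% of the others). The octamer was in 5 of 9 H2A and 7 of 10 H2B promoters and in no other type (1.56% of the others), and AAACACA was in all 4 H1 promoters and in no other type (4.81% of the others). The promoters of H1-4 and H2BC11, both abundant, are shown for the H1 box and the octamer. The bases run 5′ to 3′ on the gene's strand with matches to any of the 4 motifs in capitals.
H1-4, GRCh38.p14 (hg38), chr6:26156079-26156328, plus strand: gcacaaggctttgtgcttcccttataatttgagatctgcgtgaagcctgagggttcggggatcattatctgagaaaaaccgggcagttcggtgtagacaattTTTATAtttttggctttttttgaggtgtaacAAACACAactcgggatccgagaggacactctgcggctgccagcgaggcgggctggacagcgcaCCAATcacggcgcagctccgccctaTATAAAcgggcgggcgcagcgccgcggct
H2BC11, GRCh38.p14 (hg38), chr6:27132796-27133045, minus strand: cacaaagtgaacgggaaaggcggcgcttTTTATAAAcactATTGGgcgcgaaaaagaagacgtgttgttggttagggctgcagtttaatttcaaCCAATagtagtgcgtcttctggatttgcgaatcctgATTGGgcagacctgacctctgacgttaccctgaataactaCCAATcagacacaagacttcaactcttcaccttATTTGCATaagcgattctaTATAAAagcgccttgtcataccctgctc
The absence of these letters from the H4 windows says only that they are not in this window.

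To set these values against other genes, the same counts were taken for lists of protein-coding genes. Of 241 other intronless protein-coding genes, which like histone genes need no splicing, 18 were called lower (7.47%) and 35 higher, with a median of -0.31. Other S-phase genes, whose mRNAs are polyadenylated, had a median of -0.99 over 19 tested, with none called lower and 1 called higher, RFC3 at 2.34. Short mRNAs came closest. Of 341 other protein-coding genes with a canonical transcript under 1000 bases and at least 1000 normalized counts on average, 141 were called lower (41.3%), with a median of -1.74. Abundance without the length limit gave 6.23% of 7701 genes. The histone genes stood at 80.0%. Transcript length moves with this result, since 39 of the 40 canonical transcripts are under 1000 bases, and its part was not tested.

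**Figure D4:**
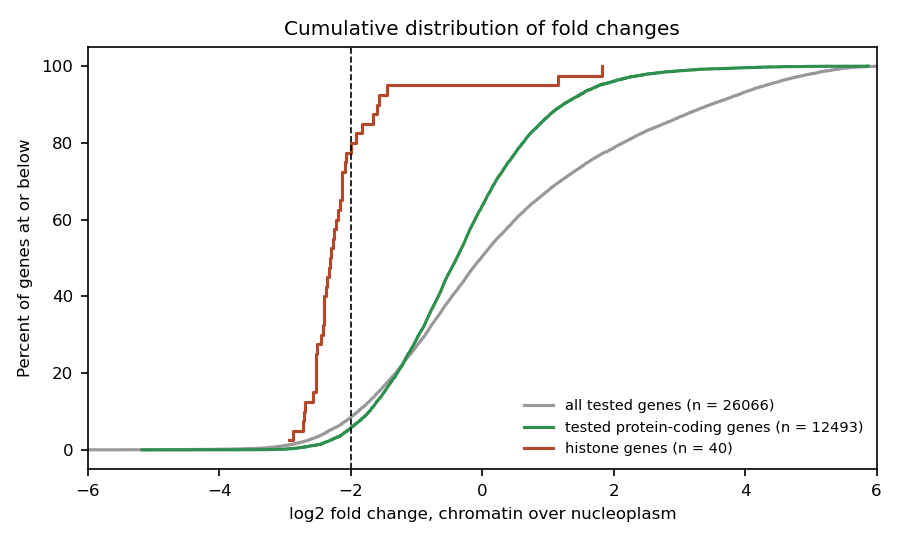
Cumulative percent of genes at or below each log2 fold change of chromatin over nucleoplasm, for 26066 tested genes, 12493 tested protein-coding genes and the 40 histone genes, with a dashed line at the fold minimum of -2. At that line 80.0% of the histone genes have been passed, and all but 2 of them lie below 0.

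Replication-independent histone variants are made throughout the cell cycle. At the adjusted p-value, 6 of 8 tested genes were lower (75%) and 1 higher, with a median of -1.29. Among tested protein-coding genes 57.5% were lower at this p-value, and among all tested genes 45.2%. H1-10, a linker histone variant, was at 1855, 1434 and 1498 in chromatin and at 7413, 7294 and 7409 in nucleoplasm, or -2.22, the only 1 of the 8 called. H3-3A and H3-3B encode the same protein, histone H3.3. H3-3A was at 2546, 2737 and 2583 against 2856, 2773 and 2749 (-0.09, limma, adjusted p = 0.094) and H3-3B at 4047, 3425 and 4031 against 9916, 10283 and 10128 (-1.40). MACROH2A1, a large H2A variant, was higher in chromatin by 1.67 on the log2 scale. H2AX and H2AZ1 were not analysed here.

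Genes that transcribe, process and degrade histone mRNA were near the middle of the range. Of 34 listed, 29 were tested, 18 lower and 9 higher at the adjusted p-value, with none called in either direction and a median of -0.69. The share lower, 62.1%, was close to the 57.5% of tested protein-coding genes. SLBP, which binds the stem-loop, was at 2577, 2233 and 2658 in chromatin against 7047, 6895 and 7125 in nucleoplasm (-1.50). LSM10, a subunit of the U7 snRNP ring, was at 218, 227 and 233 against 707, 761 and 788 (-1.73), and ERI1, an exonuclease that trims the histone 3′ end, was lower by 0.70 on the log2 scale. LSM11, the other U7-specific subunit, was at 3458, 3048 and 3399 against 3210, 3240 and 3041 and did not pass (0.06, limma, adjusted p = 0.36). NPAT, the coactivator of histone transcription at the histone locus body, was higher in chromatin, at 4989, 5022 and 4987 against 2135, 2158 and 1977 (1.26). CASP8AP2 and ZNF473, also of the histone locus body and the processing complex, were higher by 0.30 and 0.49. The U7 snRNA gene RNU7-1 was not analysed here.

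Of the 70 symbols, 30 did not meet the rule. Among these, 14 were named in the table but under the count filter, of which H2BC9 reached 78.6 normalized counts in 1 library and 13.98 was the highest value of the other 13. A further 12 had counts, but their table span overlapped the annotated gene at a Jaccard index under 0.5, and no table gene took the name of 4 (H2AC7, H2AC16, H2AC17 and H3C4). These 12 symbols had 1 locus each, and a second locus of H2AC6 was left out in the same way. Of these 13 loci, 9 had exactly the span of a longer reference transcript. Leaving out the loci of H2BC3 and of H2AC6, the 11 others were lower in chromatin, 9 of them called, with a median of -2.20. H3C14, for example, was at 8917, 8019 and 9306 against 41712, 46075 and 48831. Of the histone pseudogenes, 4 passed the count filter, 3 lower in chromatin and 1, H4C10P, higher at 23.3, 26.4 and 25.2 against 5.27, 6.89 and 3.38. Among all tested genes, 45.2% were lower and 44.2% higher at the adjusted p-value. H4C10P met the count filter through its chromatin values and H2BC2P, a pseudogene lower in chromatin, through its nucleoplasm values. The filter thus favoured the direction of both.

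The 2 loci left out above lay just after a stem-loop and had the opposite sign. The second H2AC6 locus, chr6:26124755-26127616, began 71 bases after the H2AC6 stem-loop, inside the annotated span of the gene. It was at 519, 381 and 404 in chromatin and at 43.9, 27.5 and 35.5 in nucleoplasm, which is 3.58 ± 0.18 on the log2 scale, while H2AC6 itself was at -2.45. The locus that took the H2BC3 name, chr6:26043200-26055585, began 159 bases after the H1-2 stem-loop on the same strand and ran 12386 bases on to H2BC3. It was at 309, 282 and 233 in chromatin against 92.1, 121 and 118 (1.31 ± 0.14). The gene BOLA1, which begins 484 bases after the H2AC20 stem-loop, was likewise higher, by 2.79. At 7.90, 12.9 and 14.4 normalized counts in nucleoplasm, BOLA1 needed its chromatin values to meet the count filter, which favours this direction. The other 4 tested loci that began within 1000 bases after a stem-loop were histone genes themselves. Of these loci, those of H2AC6 and BOLA1 passed the 4-fold minimum of a call as higher, and that of H2BC3 did not. Within the same distance after other protein-coding genes, 28.9% of 578 loci were called higher. That distance was counted from the end of the table span and not from a stem-loop, so the measures differ. The second H2AC6 locus, inside the table span of H2AC6, would not be counted that way.

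Long reads of chromatin gave a second view of the same fraction, per transcript and in TPM, which holds no depth. A transcript above 0 was found for 39 of the 40 genes in at least 1 library, 37 in both, and none for H3C12. Among other tested protein-coding genes the share was 92.7%. The summed TPM of the 40 genes was 790 and 1083 in the 2 libraries. The highest levels were those of H2AC19, at 85.9 and 153, and H2AC18, at 61.5 and 113. H2AC12 followed with 25.96 and 100.3, H4C3 with 43.5 and 70.7, and H3C13 with 33.3 and 80.0. The replicates agreed in order (Spearman's rho 0.87 over 40 genes), with a median log2 ratio of 0.54 and an SD of 1.26.

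Among the transcripts joined to each gene, H1-4 and H1-2 were low in long reads for their short-read level. H1-4 and H1-2, the 2 highest genes per kilobase in short-read chromatin at 30185 and 22332 normalized counts per kb, were at 4.23 and 6.15 TPM and at 1.06 and 4.40 TPM. H1-3, at 3016 per kb, had 21.3 and 21.5 TPM. Assembled transcripts that span several histone genes are not in these values. On the plus strand, that of H1-4, 1 such transcript ended where H1-4 ends, at 72.4 and 132 TPM. On the minus strand, that of H1-2, another spanned H1-2 at 308 and 562 TPM. How reads were divided between them and the transcripts of single genes was not tested. Across the 40 genes the correlation of short-read chromatin counts per kb with mean TPM was 0.58 by Spearman's rho, 0.53 over the 29 genes with at most 50% of their words elsewhere, and 0.72 over the 36 genes without H1, a subset chosen after the values were seen. Both are descriptions across genes that share libraries and, in part, sequence.

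**Figure D5:**
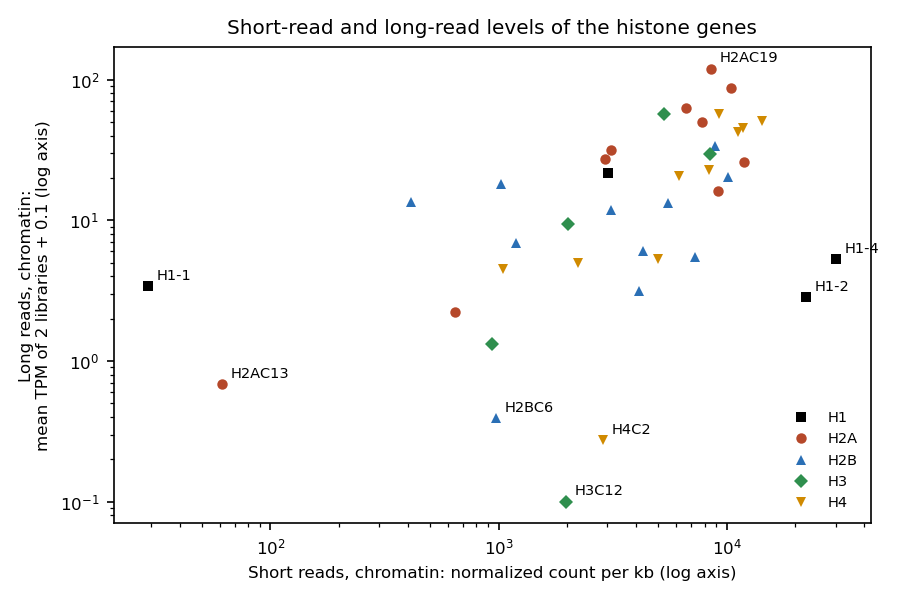
Short-read chromatin level (mean normalized count per kb of the canonical transcript, 3 libraries) against the long-read level (mean TPM of 2 libraries plus 0.1) for each histone gene, both axes logarithmic, with a marker for each type. H1-4 and H1-2 lie at the far right with under 7 TPM, and H3C12, at the bottom, is listed at 0 in both long-read libraries.

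Long transcripts across several histone genes were also present in the table. It gives a start, an end and a strand per transcript, and no exons. In all, 14 assembled transcripts above 0 spanned at least 2 histone genes, 11 on chromosome 6 and 3 on chromosome 1, over 12129 to 139755 bases, and together they covered 19 of the 40 genes. Their summed TPM, 727 and 1265, compares with 790 and 1083 for the transcripts of the 40 genes. The most abundant, chr6:26017357-26157111 on the minus strand, was at 308 and 562 TPM and spanned 14 histone genes. Its lower coordinate lay in H1-1 and its higher in H1-4, which is a plus-strand gene. Others were chr6:26026598-26104337 on the plus strand, at 117 and 219 TPM, whose end is that of H4C3, and chr6:26054545-26157115 on the plus strand, at 72.4 and 132 TPM, whose end is that of H1-4. Counting only canonical histone transcripts, both ends lay in or within 50 bases of one in 2 of the 14 and 1 end in 6, and ends shared with longer reference transcripts of these genes were not counted. Of 64451 assembled transcripts above 0, 9.20% spanned at least 2 protein-coding genes.

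The long-read transcripts of the histone genes themselves all carried reference identifiers, so their ends are those of the annotation that guided the assembly. Of 48 above 0 with a stem-loop, 19 ended within 10 bases after it and 29 ended further on. The first kind held 45.3% of their TPM in 1 library and 56.5% in the other. Only H2BC11 had both kinds above 0, at 16.2 and 19.7 TPM for the transcript that ends 5 bases after the stem-loop and at 17.1 and 14.2 TPM for the one that ends 6424 bases after it. Assembled transcripts on the opposite strand were joined to 5 genes. They were at 58.2 and 160 TPM at H2AC18, 64.3 and 179 at H2AC19, 31.1 and 57.6 at H2AC8, 29.5 and 50.1 at H4C4, and 9.36 and 3.03 at H2BC5. The sense transcript of H4C4 was at 30.6 and 53.7 TPM. The sources do not say if the strand of each read had been assigned when these values were estimated.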

How the data were processed

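RNA of HAP1 nuclei was measured in 3 chromatin and 3 nucleoplasm short-read libraries and 2 chromatin long-read libraries, grouped by title. For short reads, the authors aligned with HISAT2 2.1.0 (version from the submitters' processing notes) to hg38 with the ERCC sequences, assembled with StringTie guided by GENCODE, merged both fractions and divided gene counts by DESeq2 size factors. The deposited values are this normalized signal per gene. All of its nonzero values (100% in each library, within 0.01 of a read) were whole multiples of the value of 1 read, which gave reads for the count tests. Long reads were aligned by the authors with minimap2, assembled with StringTie and merged over replicates. The deposited values are TPM per transcript.

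Tested were the 26066 genes that span over 200 bases and reach 10 normalized counts in 3 or more libraries. In R 4.3.3, limma 3.58.1 with its trend option was fitted to log2(normalized count + 1) of the 6 libraries without covariates, two-sided, with Benjamini-Hochberg adjustment over all tested genes. Fold changes on this scale understate those of low genes. A call needs an adjusted p-value under 0.05 and a log2 fold change above 2 or below -2. On simulated counts, 184 of 200 genes changed by 3 on the log2 scale were called in the right direction, with 5 unchanged genes called. The count tests called 5675 genes higher and 2167 lower (edgeR 4.0.16), and 5846 higher and 1961 lower (DESeq2 1.42.0), against 5531 and 2208 with limma.

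Names follow GENCODE release 44 on hg38. ENSG identifiers were matched by their stable part. Genes with an assembler identifier were named by the same-strand annotated gene of highest span Jaccard index, if 0.5 or more. Sequences were read from hg38, and promoters from RefSeq (GRCh38.p14). Levels per kb use the length of the canonical transcript. Counts are those of the whole table gene, which in some members, such as H2AC6, H2BC15, H4C14, H4C15 and H4C16, spans far more than this transcript. Long-read transcripts were joined to a gene by reference identifier or by the same overlap. The named genes are the 3 most abundant of each type, the lowest and highest fold change of each type, those with an adjusted p-value of 0.05 or more or a fold change above 0, and fixed genes of histone mRNA metabolism, the variants and the fraction check. Genes named beyond this rule were chosen after their values were seen, as were the comparison with short mRNAs, the divergent pairs, the promoter motifs and the loci after stem-loops. The members and lists were chosen with earlier results of these data known. Alternatives are given in the closing section.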

Additional observations from a re-analysis of the deposited data

How the results depend on the processing

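Of the 638 fold changes of single histone genes under 16 alternative fits, 636 kept their direction and their side of the adjusted p-value of 0.05. The exceptions were H1-1 under the same ERCC total, at -0.075, a reversal, and H2AC13 under the same scaling, at 0.59, which changed side. Leaving out each library gave 30 to 33 genes called lower and 0 or 1 called higher. The genes called higher were 1 with DESeq2, and 2 with a fold minimum of 2 or none. Only H1-1 and H2AC13 were above 0, and the count filter favoured their direction. Under the same total per library, 11 were called lower and 1 higher, and the medians were -1.85 for all 40, -1.87 for H1, -1.94 for H2A, -1.63 for H2B, -1.67 for H3, -2.17 for H4, -1.84 for chromosome 6 and -1.95 for chromosome 1. Under the same ERCC total they were -3.63, -3.66, -3.73, -3.41, -3.45, -3.96, -3.63 and -3.73. Without a filter the medians of H1, H3 and chromosome 6 were -1.54, -1.91 and -2.16, DESeq2 gave -2.21 for chromosome 6, and without the genes that share most words chromosome 1 was at -2.19. The log2 ratio of the summed level moved from -2.36 to -1.90 under the same total and -3.70 under the same ERCC total. For histone mRNA metabolism, the median was -0.23 under the same total and -2.02 under the same ERCC total, and the genes called were 15 under the ERCC total, 11 with a fold minimum of 2, 27 with none, 1 by any overlap and 0 to 1 without each library. For the variants, the medians were -0.83 and -2.61, and 6, 7 and 7 were called under the ERCC total and the looser folds, with 1 to 2 without each library. For S-phase genes, the medians were -0.53 and -2.32, -0.90 with DESeq2, -1.13 at a Jaccard index of 0.8 and -0.89 by any overlap, and 13, 11 and 19 were called. For intronless genes, the median turned to 0.14 under the same total and was -1.59 under the ERCC total, -0.22 with DESeq2 and -0.60 at a mean of at least 50, with 24 called at that mean, 111 under the ERCC total, and 120 and 199 with the looser folds. Among all 26066 tested genes, 8942 were called lower and 3047 higher under the ERCC total. With no fold minimum 45.2% were lower and 44.2% higher, so counts with none are to be read beside these shares. The share of all genes at a fold minimum of 2 was not counted. The causes of these shifts were not tested. Samples of the same number correlated at 0.09, 0.05 and 0.06, each best with its own number. Both fractions came from the same cultures, but the titles give only replicate numbers. These small correlations do not decide if equal numbers mark the same culture, and the main fit used no pairing. With the replicate block, 32 genes were called lower and 0 higher, and 5540 and 2218 of all genes were called higher and lower. Leaving out each long-read library gave 38 genes above 0 and sums of 790 to 1083 TPM. No transcript with an assembler identifier was joined to a histone gene on the gene's own strand, so that alternative gave no distance to the stem-loop. The lists were not rerun without shared words, which were counted for histone genes alone. H1-1 and H2AC13, with at most 36.1 normalized counts, are the values that depth limits most.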
